A study of Macaca mulatta with 5 samples.

Results

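A group of 1040 H3K4me2 islands in rhesus macaque prefrontal cortex held fewer reads in their middle than on either side. Islands are stretches of enriched sequence that the authors called once on 4 libraries together, and the deposited table lists 59189 of them, 58414 on autosomes. The dipped islands were chosen among the 17000 autosomal islands that were 2000 to 6000 bp wide, had at least 150 pooled H3K4me2 reads in the authors' count and had under 20 input reads per kb. Each was divided into 3 equal segments, and an island was kept when its middle segment held at most 0.8 times the pooled reads of each outer segment. This left 6.12% of the eligible islands, and the 15960 others serve for comparison. The pooled reads chose the members, so the pooled dip is a description and was not tested.

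H3K4me2 is histone H3 carrying 2 methyl groups on lysine 4. The mark sits on nucleosomes at promoters and enhancers. At such elements in active use, factors bound to DNA can displace nucleosomes, and marked nucleosomes on both sides then frame a gap in the signal. The island caller used here, SICER, joins enriched windows across gaps, so that an island can also span neighbouring stretches of signal with little between them.

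The tissue came from 4 macaques aged 0.4, 9, 22 and 26 years, with 1 library per age and about 200 mg of tissue per immunoprecipitation. A single input library, DNA that was not immunoprecipitated, came from a pool of 7 macaques that included these 4. Its chromatin was fixed for 15 min in 1% formaldehyde and sheared by sonication into fragments averaging 300 to 500 bp. The labels name no treatment and no strain, and give no further detail of the animals used here. Prefrontal cortex was profiled whole, so a change in the mix of cells and a change within cells cannot be told apart, and the tissue was not checked by marker genes, since no annotation was used. The series asks whether H3K4 methylation builds up over development and aging. No age has a replicate, so differences between ages cannot be told apart from differences between animals, and all intervals below are exact Clopper-Pearson 95% intervals that cover counting error only.

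On autosomes the libraries held 8402719, 9405440, 10155000 and 10810296 reads from the youngest to the oldest animal, and the input 13738020. Each read was placed at its 5′ end moved 75 bp towards the 3′ end. Reads in the 215567 bins of 10 kb without islands, called background below, were 60.9%, 54.4%, 52.0% and 52.6% of these reads from youngest to oldest, and 74.8% of the input. The infant library therefore had the largest share of background, which bears on each comparison between ages.

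Summed over the 1040 dipped islands, the middle segments held 6.69, 9.49, 10.7 and 11 reads per kb in order of age, and the outer segments 12.3, 16.8, 20.2 and 21.4. The middle was below the outer level in each of the 4 libraries. The middle-to-outer ratio, the reads of the middle segment over the mean of the outer segments, was 0.543 in the infant (0.531 to 0.555) and 0.566 in the animal of 9 yr (0.555 to 0.577). In the animals of 22 and 26 yr it was 0.527 (0.518 to 0.537) and 0.514 (0.505 to 0.523). The other eligible islands had the opposite shape, with ratios of 1.27, 1.34, 1.41 and 1.39 in order of age, highest in their middle.

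**Figure D1:**
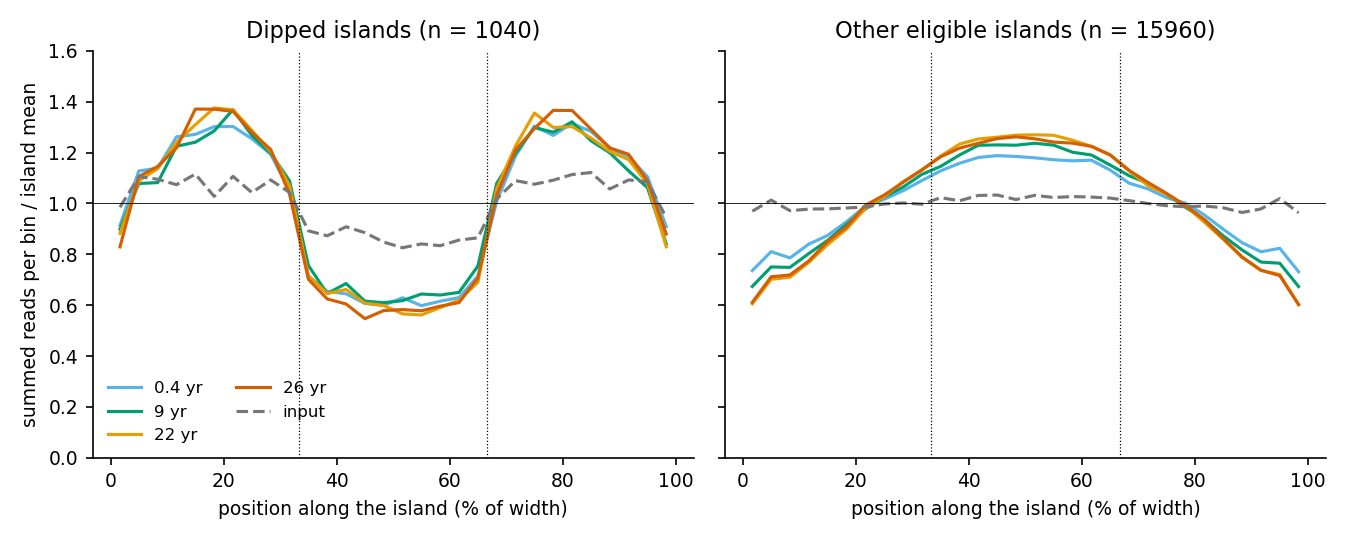
Summed reads along islands scaled to a common width (x axis, % of island width; y axis, reads per bin relative to the island mean) for the 1040 dipped islands and the 15960 other eligible islands, 1 line per library and a dashed line for the input. The vertical dotted lines mark the segments: in dipped islands the 4 H3K4me2 lines fall between them and the input falls less, while in the other islands the H3K4me2 lines are highest in the middle.

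The fall at the borders of the middle segment in this profile is fixed by the rule, which counts reads in segments, and says nothing about the width of single dips. Single islands varied in depth. The ratio of the middle to the weaker outer segment, the measure limited by the rule, had a lowest value of 0.171, quartiles of 0.623 and 0.754 and a median of 0.696. The outer segments of dipped islands were more even than those of other islands, with a median ratio of stronger to weaker of 1.30 against 1.69, a difference that the rule favours since it limits the middle against both sides. The stronger segment was the left one in 505 dipped islands and the right one in 519, nearly evenly.

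The 5 deepest dips by this measure lay on chromosomes 2, 18, 4 and 7. The coordinates are those of the deposited files, whose genome build is not given in the sources used here, and the genes, exons or promoters at these positions were not analysed here. The deepest, chr2:100065401-100070600, is 5200 bp wide and held 370 pooled reads in its left segment, 46 in its middle and 269 in its right. Its middle held 6, 12, 12 and 16 reads in order of age, against 64, 93, 106 and 107 on the left and 37, 59, 68 and 105 on the right. Every library alone showed the dip, and the input, with 16, 7 and 15 reads across the segments, had its lowest count in the middle, on few reads.

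At chr18:43974801-43978000 the segments held 126, 23 and 139 pooled reads, and the middle held 2, 2, 13 and 6 in order of age. The input had 7, 4 and 9 reads there, and the longest stretch within the island without the left end of a read of any of the 5 libraries was 524 bp. The island chr4:552001-554400 was lopsided, with 65 reads on the left, 14 in the middle and 259 on the right. Its middle segment held 1, 3, 7 and 3 reads in order of age, and its input 3, 3 and 6 across the segments.

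On chromosome 7, chr7:144409601-144412800 held 102, 23 and 141 reads across its segments and had a stretch of 435 bp without the left end of a read. The second, chr7:46650801-46653000, held 93, 27 and 135 reads, with 0 in the middle segment at 0.4 yr and 9 in each older library. A count of 0 allows up to 3 reads, against outer segments of 14 and 15 reads in that library. All 5 islands met the rule with any 1 library left out.

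**Figure D2:**
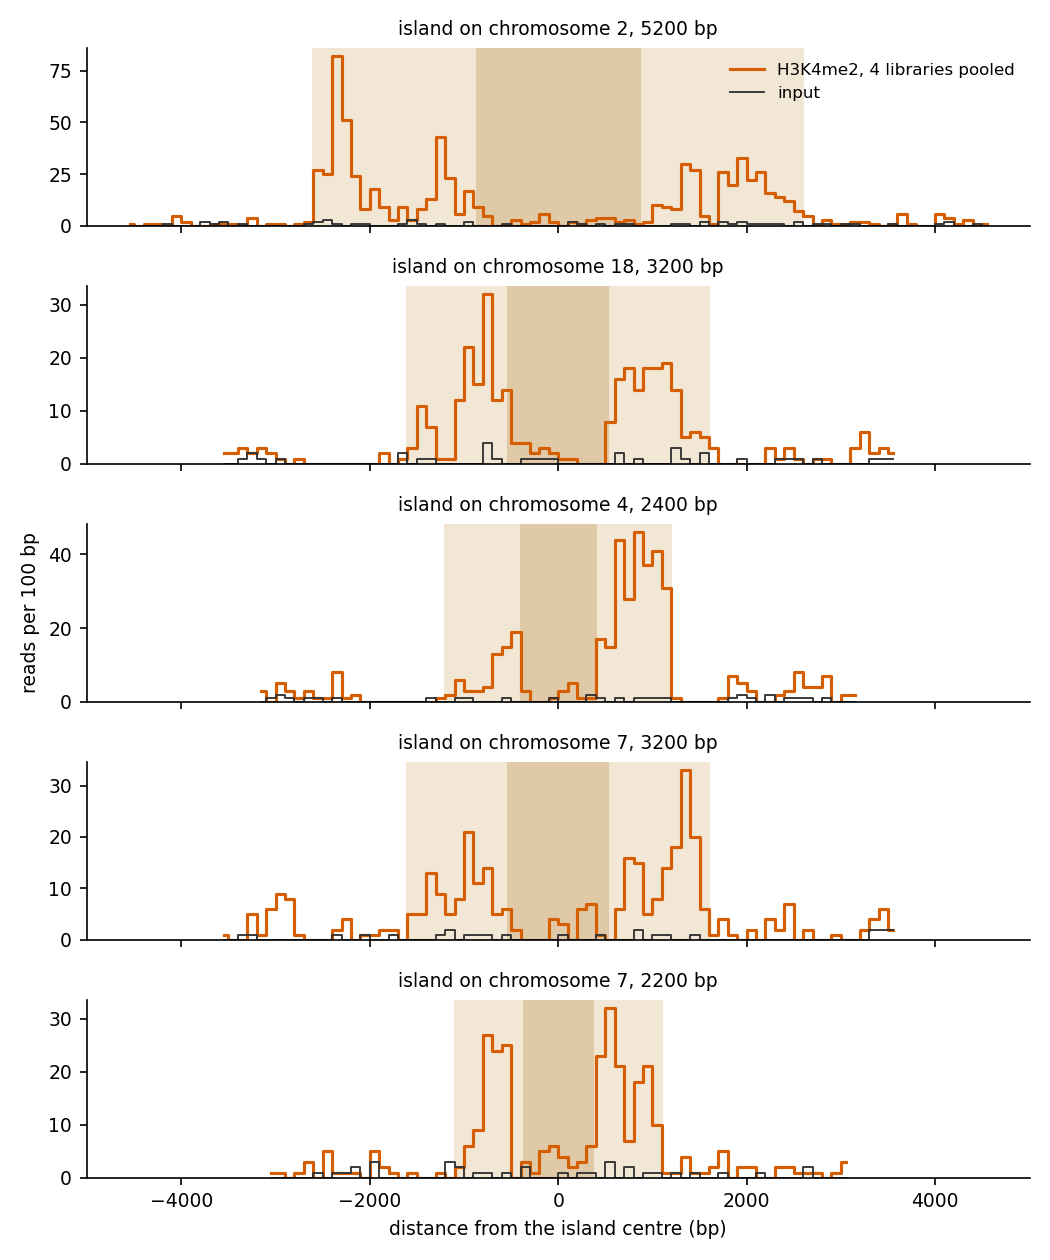
Pooled H3K4me2 reads and input reads per 100 bp (y axis) against distance from the island centre in bp (x axis) for the 5 islands with the lowest ratio to the weaker outer segment. Light shading marks the island and dark shading its middle segment; the signal stands in separate blocks on both sides of a low middle, while input counts are low throughout.

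At the limit itself the dip is slight. The 3 members just inside, at a ratio of 0.8, were chr10:15710001-15715200 (85, 68 and 85 reads across the segments), chr11:125294401-125298400 (55, 44 and 63) and chr11:85988001-85991600 (72, 44 and 55). Just outside, at 0.802, were chr18:48860401-48866000 (276, 85 and 106), chr3:7235801-7241800 (106, 85 and 219) and chr7:80724401-80727000 (101, 81 and 117). These 6 islands differ across the limit by a fraction of a read, and none of the 3 inside met the rule with each library left out in turn.

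The members with the most reads per kb show the dip at higher counts. The densest, chr19:12666601-12668800, held 179 pooled reads per kb, with 69, 53 and 314 reads across its segments. Its middle held 10, 12, 10 and 21 reads in order of age and its left segment 9, 28, 19 and 13, so that middle and left overlapped. The dip of that island is a strong right side rather than a low middle.

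By contrast chr3:101145201-101147200, with 182, 73 and 110 reads, had a middle of 12, 19, 16 and 26 against a weaker right side of 21, 21, 31 and 37, lower in 4 of 4 libraries. The island chr15:36121001-36123200 held 154, 70 and 135 reads, and its middle held 8, 10, 16 and 36 reads against 27, 31, 27 and 50 on the right, again lower in 4 of 4. Its input held 6, 8 and 8 reads. The other 2 of these 5 were chr18:69957601-69960800 (370, 83 and 113 reads) and chr12:39639801-39642000 (132, 86 and 157), which had the highest authors' fold among the 5, both 10.7. In chr18:69957601-69960800 the middle held 10, 20, 22 and 31 reads against 23, 35, 20 and 35 on the right, so it was above the right at 22 yr. Neither this island nor chr19:12666601-12668800 met the rule with each library left out in turn.

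Whether a dip seen in 3 libraries was present in a library left out of the dip rule was then measured. The rule was applied to 3 libraries pooled and the ratio read in the one left out, which gave 1093, 1138, 1190 and 1130 islands with the 0.4, 9, 22 and 26 yr library left out. In the library left out the ratio was 0.637 for the infant (0.623 to 0.650) and 0.645 for the animal of 9 yr (0.634 to 0.657). For the animals of 22 and 26 yr it was 0.624 (0.614 to 0.634) and 0.595 (0.585 to 0.604). Islands not chosen had 1.26, 1.34, 1.41 and 1.39 in the same libraries. The dip was thus present in each of the 4 libraries when that library was left out of the dip rule, and shallower than in the members chosen with it.

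Of the islands chosen, 81.8%, 85.0%, 85.4% and 86.6% had fewer reads in the middle than in the mean outer segment of the library left out, against 36.0%, 32.5%, 31.6% and 32.6% of those not chosen. The islands themselves were called on all 4 libraries. The library left out thus had a part in which islands were eligible and in where their borders, and so their segments, lay. It had none in the choice by the dip rule.

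Single members were less certain than their sum. Each library alone met the limit of 0.8 in 653, 640, 703 and 709 of the 1040 members in order of age. All 4 libraries did so in 171 members, 3 in 388, 2 in 378, 1 in 101 and none in 2. The rule held with any 1 library left out for 547 members. The middle lay below both outer segments in each of the 4 libraries in 419 members, out of 445 eligible islands with that pattern.

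The input was not used by the dip rule, and it also dipped in these islands. Summed over the 1040 members it held 6.89 reads per kb in the middle and 8.54 in the outer segments, a ratio of 0.807 (0.788 to 0.826). In the other eligible islands the input ratio was 1.04 (1.03 to 1.04). The input was below its mean outer level in the middle of 720 members (69.2%) and of 45.8% of the others, on a median of 9 input reads per middle segment of a member. The input alone would have met the 0.8 limit in 356 members, 34.2%, against 17.9% of the others.

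In the sum over islands the H3K4me2 dip was deeper than that of the input. In the islands chosen without the library read, the input ratio was 0.819, 0.813, 0.816 and 0.818, and the library's ratio over it 0.777, 0.793, 0.764 and 0.727 in order of age. The islands chosen were then split on input reads alone. Where the input middle was not below its outer mean (351, 351, 381 and 361 islands), the library left out had ratios of 0.703, 0.702, 0.678 and 0.640 in order of age, with input ratios of 1.25 to 1.28. Where it was below (742, 787, 809 and 769 islands), the ratios were 0.606, 0.621, 0.599 and 0.574, with input ratios of 0.644 to 0.651. The library left out was thus lower in the middle in both sets. Which set had the deeper dip depended on the input: after subtraction of scaled input, described next, the ratios were 0.434, 0.533, 0.532 and 0.474 where the input was not lower in the middle, and 0.582, 0.609, 0.585 and 0.552 where it was. The split and the subtraction used the same input reads, so subtraction lowers the ratio more where the input middle was high. Single islands hold few input reads, so the split follows counting error in the input too.

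**Figure D3:**
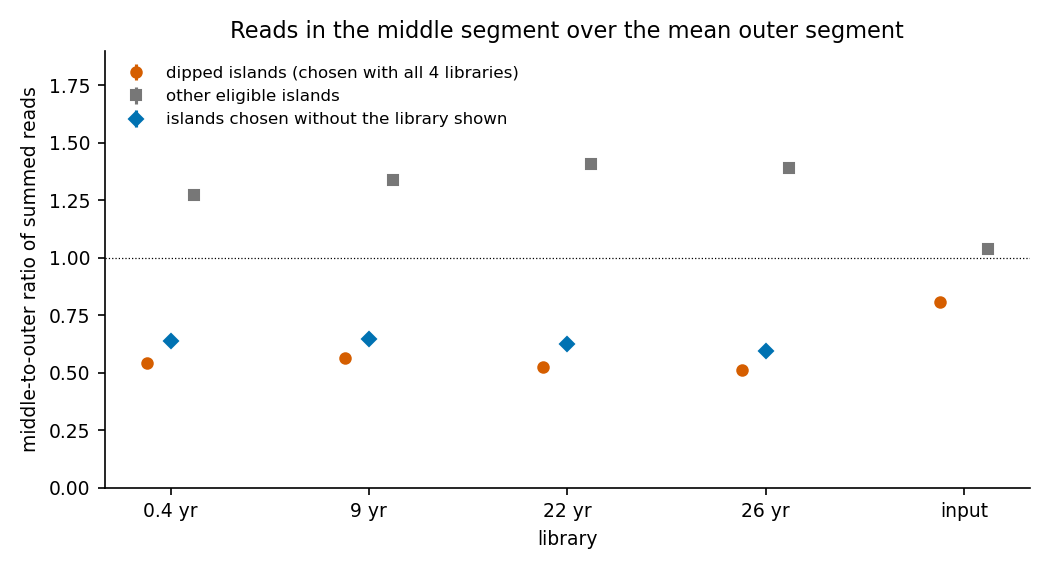
Middle-to-outer ratio of summed reads (y axis, from 0) in each library (x axis) for the 1040 dipped islands, for islands chosen without the library shown and for the 15960 other eligible islands; bars are exact 95% counting intervals, mostly smaller than the symbols. Dipped islands lie between 0.514 and 0.566 in the H3K4me2 libraries and at 0.807 in the input, and islands chosen without the library shown lie between 0.595 and 0.645.

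Input scaled to the background of each library was subtracted to set the dip against that level. The middle segments stood at 1.95, 2.76, 3.01 and 2.88 times the scaled input in order of age, and the outer segments at 2.90, 3.94, 4.60 and 4.53 times. The middle of a dipped island was thus enriched over input in the sum, though less than its sides, and 7 members had a middle at or below the scaled input. After subtraction the ratio was 0.404, 0.484, 0.450 and 0.431 in order of age. In islands chosen without the library read it was 0.533, 0.585, 0.568 and 0.527. Of the 1040 members, 828 (79.6%) still met the rule after subtraction from the pooled counts.

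Stretches without the left end of a read were measured because a region to which reads cannot be placed also leaves a dip. Such a stretch can include the bases of the read that opens it. The longest such stretch over all 5 libraries had a median of 177 bp in members and 159 bp in the other islands. It reached 400 bp in 57 members (5.48%) against 3.56% of the others. It was centred in the middle segment in 65.2% of members and 25% of the others. The 57 members with a stretch of at least 400 bp had ratios of 0.434, 0.502, 0.497 and 0.437 in order of age and an input ratio of 0.675. The 622 members with none of 200 bp or more had 0.559, 0.579, 0.535 and 0.520, and 0.826 in the input. All of these were chosen for a dip in the same reads, so that a dip in each set follows from the rule. The dip was deeper with the long stretches than without. The stretches were taken from the same reads and often lay in the middle, so this difference in depth follows in part from the grouping. The part that read placement or base composition has in the shared dip of input and H3K4me2 was not tested.

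A finer view was made by centring each island on the lowest 400 bp of its middle segment in 3 libraries and reading the library left out, over 4551 island and library pairs. Within 100 bp of that centre the library left out fell to 0.405 of its level at 700 to 1500 bp, and within 200 bp to 0.459. It was back at 0.941 from 200 to 400 bp and 1.02 from 400 to 600 bp, so the trough was about as wide as the stretch used to place it. The input fell with it, to 0.605 within 100 bp and 0.654 within 200 bp. The library left out divided by the input was 0.670 within 100 bp and 0.701 within 200 bp. Part of the narrow trough is thus a place where all libraries, immunoprecipitated or not, had fewer reads. The centre was held to the middle segment. In the pooled reads, the lowest 400 bp of the whole island was centred there in 783 members (75.3%), and elsewhere in the rest. The share was 20.3% in the other eligible islands, a difference that the rule favours.

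SICER's windows of 200 bp and gaps of up to 400 bp bear on the low middle. A window was counted as low when it held under 6 pooled reads, since 94.5% of the windows at island edges held at least that many. At least 1 low window lay in the middle segment of 947 members (91.1%) and of 53.7% of the other islands, and at least 2 adjoining ones in 565 (54.3%) and 17.5%. These shares follow in part from the rule, which asks for a low middle. In 565 members the middle thus held a low stretch at least as long as the largest gap the caller joins. In 82 of them at least 3 low windows adjoined, which is longer than that gap, so the count of 6 reads is not the caller's own limit. Whether a dipped island was joined from separate stretches of signal was not tested. The 93 members with no low window had ratios of 0.504, 0.608, 0.614 and 0.547 in order of age.

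Taken over all groups, dipped islands lay closer to other islands. The nearest other island was a median of 1800 bp away, against 3200 bp for the other eligible islands. It lay within 2 kb of 551 members (53.0%) and of 43.2% of the others, and at least 20 kb from 128 members (12.3%) and 22.2% of the others. Widths did not differ in their median, which was 4000 bp in both. Dipped islands were weaker, with a median authors' fold over input of 2.37 against 3.47, 51.8 pooled reads per kb against 69.3, and 7.78 input reads per kb against 7.5. These are descriptions, since the pooled reads of the dip rule also enter the fold and the reads per kb.

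Grouped by the authors' fold, the share with a dip was 9.38% below 2-fold (375 of 3997 islands), 5.77% from 2 to 5-fold (496 of 8599), 3.59% from 5 to 10-fold (151 of 4207) and 9.14% at 10-fold or more (18 of 197). The share fell with fold over the first 3 groups and was higher in the small group at the top. In the library left out, the dip ratio over the 4 libraries was 0.749, 0.578, 0.559 and 0.575 in the same order of fold. It was nearest to 1 in the weakest islands, where 75.9% of chosen islands had the lower middle in the library left out, against 89.0%, 93.3% and 89.1% in the stronger groups.

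The closeness to neighbours depended on the fold. Below 2-fold 53.1% of members and 56.5% of the others had an island within 2 kb, and from 2 to 5-fold 59.7% and 44.1%. From 5 to 10-fold these shares were 33.1% and 29.8%, and at 10-fold or more 33.3% and 34.1%. Only from 2 to 5-fold were members closer to a neighbour by more than 4 percentage points. Grouped by the authors' pooled count, 54.8% of members and 50.0% of the others had an island within 2 kb at 150 to 200 reads, 54.2% and 42.2% at 200 to 300, and 48.8% and 36.4% at 300 to 500. At 500 reads or more the order was the other way, with 29.6% of 27 members and 47.4% of the others.

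**Figure D4:**
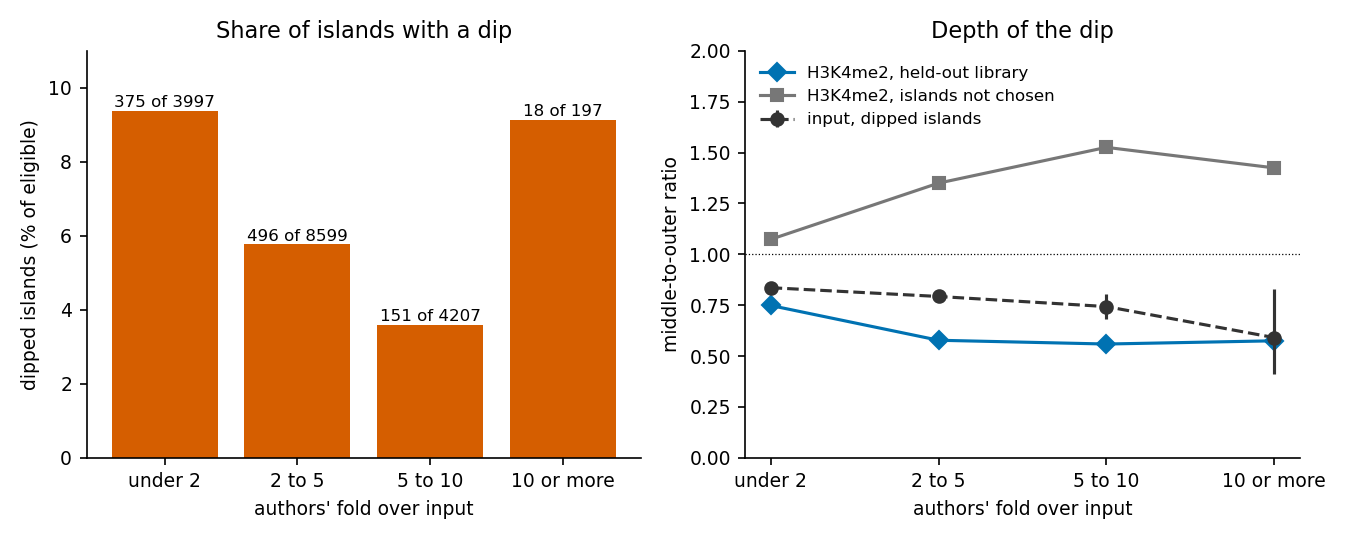
Left, share of eligible islands with a dip (y axis, %, from 0) by the authors' fold over input (x axis), with the counts above the bars. Right, middle-to-outer ratio by the same fold groups for islands chosen without the library read, for islands not chosen and for the input of dipped islands (bars, exact 95% counting intervals); the ratio of chosen islands is 0.749 in the weakest group and 0.559 to 0.578 in the others.

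The 18 members at 10-fold or more are those where background weighs least. Their middles stood at 14.6 times scaled input and their outer segments at 16.1 times, and their H3K4me2 ratio was 0.394, 0.536, 0.678 and 0.478 in order of age. Their input ratio was 0.591 (0.412 to 0.832), an interval that holds the 0.535 of their pooled H3K4me2 reads. At 22 yr the H3K4me2 ratio was above that of the input, with the middle at 21.2 times scaled input and the outer segments at 18.4 times. The sharpest of these was chr7:59171801-59174000, with an authors' fold of 12.3 and 220, 27 and 84 reads across its segments, and the mildest chr6:43074401-43076800, with 120, 95 and 122. Both were picked after their values were seen. By the authors' pooled count the share with a dip was 8.88% at 150 to 200 reads, 6% at 200 to 300, 3.54% at 300 to 500 and 3.44% at 500 or more, while the ratio in the library left out went from 0.696 to 0.621, 0.557 and 0.494. Islands with more reads were thus dipped less often, and the dips chosen in them were deeper in the library left out. Counting error is wider at low counts, and its part in these shares was not tested.

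Width made less difference to the share with a dip. It was 4.92% of eligible islands of 2 to 3 kb, 5.90% of 3 to 4 kb, 6.83% of 4 to 5 kb and 6.55% of 5 to 6 kb. In the library left out the ratio was 0.549, 0.596, 0.655 and 0.651 in the same order. Adjoining low windows, 2 or more, lay in the middle of 25.6% of members and 3.66% of the others at 2 to 3 kb. At 5 to 6 kb these shares were 72.4% and 32.7%. Over the 20 autosomes the share with a dip ran from 4.74% on chromosome 13 (34 of 717) to 8.47% on chromosome 18 (25 of 295). No chromosome was without dipped islands.

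Age was examined first in the depth of the dip. The summed ratio was highest at 9 yr and lowest at 26 yr before subtraction of input, and highest at 9 yr and lowest at 0.4 yr after it. The order of the 3 older libraries was the same in both, and the place of the infant changed. Before subtraction the counting intervals overlapped between 0.4 and 9 yr, 0.4 and 22 yr, and 22 and 26 yr. In the libraries left out, the ratio over all islands chosen was highest at 9 yr and lowest at 26 yr, both before and after subtraction. Where the input middle was not below its outer mean, the infant was lowest after subtraction (0.434, 0.533, 0.532 and 0.474 in order of age). Where it was below, the animal of 26 yr was lowest (0.582, 0.609, 0.585 and 0.552). These sets were split on the same input reads that were then subtracted. A trend of the middle segment against the outer segments with age was fitted for every eligible island with edgeR's quasi-likelihood test. After Benjamini-Hochberg adjustment 0 of the 1040 members passed in either direction, against 0.00588% of all 17000 eligible islands rising (1 island) and 0% falling.

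At an unadjusted p under 0.05 the slope of the middle relative to the outer segments was above 0 in 20 members (1.92%) and below 0 in 37 (3.56%), against 4.32% and 2.25% of all eligible islands. DESeq2 gave 0 and 4 members (0.447% and 0.182% of all eligible islands), and limma-voom 25 and 33 (4.15% and 2.04%). The median slope was -0.0036 log2 units per year in members and 0.0036 over all eligible islands, and 43.4% of members had a slope above 0. The members were chosen on the sum of the same counts, and these shares were not tested. In simulated data for this comparison, the changed islands were drawn from all eligible islands, with an assumed spread between libraries. The test recovered 2% of 2-fold and 26% of 4-fold changes there, so most such changes in a single island were not detectable at this depth. Recovery in dipped islands alone was not measured.

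The members with the smallest p show what such counts look like. In chr1:134981401-134987400 the middle held 19, 14, 15 and 10 reads in order of age, the left segment 5, 14, 33 and 29, and the right segment 15, 33, 35 and 29. The middle was above both sides in the infant, so that library had no dip there. It was level with the left side at 9 yr and below both sides at 22 and 26 yr. The fitted log2 change of the middle relative to the outer segments from the youngest to the oldest animal was -2.15 (SE 0.61, edgeR adjusted p = 0.252). The next were chr16:9865201-9870000, with middles of 9, 22, 13 and 6 reads and a change of -1.97 (SE 0.66, edgeR adjusted p = 0.441), and chr11:13840601-13846200, with middles of 17, 8, 10 and 11 and a change of -1.76 (SE 0.64, edgeR adjusted p = 0.571).

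In the other direction chr10:27894201-27898800 had 5, 8, 12 and 16 reads in its middle while its left segment held 15, 17, 12 and 9. The dip was present at 0.4 yr and absent at 26 yr in these counts, with a log2 change of 1.86 (SE 0.73, edgeR adjusted p = 0.618). At chr20:1209801-1212800 the middle held 2, 6, 8 and 16 reads (change 2.10, SE 0.85, edgeR adjusted p = 0.640), and at chr16:72651601-72657400 9, 14, 21 and 26 (change 1.41, SE 0.58, edgeR adjusted p = 0.657). Neither direction gave a change beyond the test's threshold, and all 6 of these islands had an authors' fold of 2.67 or less.

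Age was then examined in the level of whole islands, under 2 scalings. The TMM method (trimmed mean of M values) sets the typical island to no change, and background scaling sets the bins without islands to no change. With TMM the median log2 ratio of members to 0.4 yr was 0.03, 0.02 and 0.02 for 9, 22 and 26 yr, against 0.05, 0.07 and 0.06 over all islands that held 50 or more reads in both libraries together. With background scaling the members' medians were 0.44, 0.63 and 0.60, against 0.46, 0.68 and 0.63. The 3 comparisons share the infant library. The shift of about 0.4 to 0.6 between the scalings applies to all islands alike, and the members' medians were 0.02 to 0.05 below those of all islands under both.

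Counts past 2-fold were near those of all islands. With TMM, 11 members were over 2-fold higher at 9 yr than at 0.4 yr and 8 lower (all islands 1.21% and 0.919%), 9 and 12 at 22 yr (all islands 1.39% and 1.17%), and 5 and 8 at 26 yr (all islands 1.2% and 1.15%). The members' own shares were 1.06% and 0.769%, 0.866% and 1.15%, and 0.481% and 0.769%. With background scaling 77, 186 and 168 members were over 2-fold higher, 7.4%, 17.9% and 16.2%, where those of all islands were 8.1%, 20.8% and 18.1%, and 0, 1 and 0 were over 2-fold lower (all islands 0.136%, 0.0532% and 0.0432%). Each of these shares was below that of all islands except for the 1 member over 2-fold lower at 22 yr. Members and all islands were not matched for read number.

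The older animals were compared with each other in the same way. With TMM, 6 members were over 2-fold higher at 22 yr than at 9 yr and 8 lower (all islands 0.812% and 0.957%), 1 and 0 at 26 yr against 9 yr (all islands 0.489% and 0.46%), and 3 and 3 at 26 yr against 22 yr (all islands 0.829% and 0.712%). With background scaling these were 15 and 0 (all islands 2.11% and 0.373%), 1 and 0 (1.11% and 0.17%), and 3 and 3 (0.704% and 0.849%), so the balance at 22 against 9 yr depended on the scaling. The standard deviation of the log2 ratio over members was 0.37, 0.32 and 0.36 for these pairs, and 0.41, 0.43 and 0.42 for 9, 22 and 26 yr against the infant. Over all islands it was 0.39, 0.35 and 0.38, and 0.41, 0.44 and 0.44. The infant library has the fewest reads, and the part of read number in these spreads was not tested.

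No member was among the 2 largest ratios of the same direction at all 3 older ages. The members named here as higher all had their fewest reads in the infant, the library that all 3 ratios share. At chr16:48443001-48445400 the total reads were 15, 54, 47 and 63 in order of age, and its right segment alone went from 6 to 43, 35 and 46. Its log2 ratio to 0.4 yr with TMM was 1.40 at 9 yr (counting interval 0.58 to 2.36) and 1.31 at 26 yr (0.51 to 2.26). The infant was low and the 3 older animals were alike. At chr2:39071601-39074800 the totals were 21, 54, 80 and 80 (1.25 at 22 yr, 0.57 to 2.05; 1.18 at 26 yr, 0.49 to 1.97), again lowest in the infant.

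The largest ratio at 9 yr was that of chr16:26590401-26595200, with 29, 125, 88 and 100 reads (1.67, 1.10 to 2.33), and at 22 yr that of chr4:18308401-18311000, with 26, 56, 103 and 77 (1.31, 0.70 to 2.01). The first was highest at 9 yr and the second at 22 yr. Lower than in the infant were chr14:126855801-126860400 at 9 yr (49 and 29 reads, -1.17, -1.89 to -0.48), chr19:63804401-63809400 at 9 yr (49 and 31, -1.07, -1.78 to -0.40), chr4:163523601-163527200 at 22 yr (40 and 25, -1.32, -2.11 to -0.57) and chr18:39451601-39455200 at 26 yr (54 and 41, -1.12, -1.75 to -0.51). The lowest ratio was that of chr16:15362601-15366200 at 22 yr, with 63, 40, 28 and 61 reads in order of age (-1.81, -2.52 to -1.16). Its raw count at 26 yr was close to the infant's. The TMM scale was 0.732 for the infant library and 1.21 for that of 26 yr, so the scaled level was lower at 26 yr. The island chr1:149306601-149308600, described below, was lower than the infant at 9, 22 and 26 yr (-0.99, -1.19 and -1.33).

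A linear trend of the island level with age was tested over 57903 islands. With TMM 0 of the 1040 members rose and 0 fell after adjustment (edgeR; 0% and 0% of all islands). At an unadjusted p under 0.05, 46 members had a rising slope (4.42%, against 3.45% of all islands) and 39 a falling one (3.75%, against 3.52%); DESeq2 gave 8 and 1 (0.589% and 0.326% of all islands), and limma-voom 42 and 42 (3.03% and 3.72%), with 0 after adjustment in both. Without the 26 yr library 1 member fell with TMM after adjustment, against 0.0158% of all islands. With background scaling 20 members rose (1.92%, against 1.18% of all islands) and 0 fell (all islands 0.00173%). Leaving out 1 library at a time, that count was 0 without 0.4 yr (0.0191% of all islands), 223 or 21.4% without 9 yr (15.5%), 0 without 22 yr (0.0123%) and 5 without 26 yr (0.57%). The count rested on single libraries, and that of all islands moved with it.

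Among the members nearest to a rising trend, chr5:175201001-175205200 had TMM-normalised read counts of 51.9, 64.4, 89.5 and 99.7 in order of age, higher at each age than at the one before. Its fitted log2 change over the age range was 0.94 (SE 0.28, edgeR adjusted p = 0.689), and 1.47 with background scaling (edgeR adjusted p = 0.0281). At chr8:79142401-79144400 the normalised counts were 39.6, 53.2, 61.7 and 88.2 (change 1.00, SE 0.31, edgeR adjusted p = 0.689, and 0.0281 with background scaling). At chr19:37851601-37857000 they were 57.4, 70.5, 134 and 89.8, highest at 22 yr (change 0.95, SE 0.30, edgeR adjusted p = 0.689, and 0.0265 with background scaling). These 3 passed with 1 scaling and not the other, and their calls ended without the 0.4 yr or the 22 yr library, where 0 members were called.

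Of the members nearest to a falling trend, chr1:149306601-149308600 had normalised counts of 83.3, 41.9, 36.5 and 33.0, with the infant apart from 3 older animals that were close to each other. Its fitted change was -1.23 (SE 0.33, edgeR adjusted p = 0.682). Its input was uneven, with 20, 8 and 8 reads across the segments, and its authors' fold was 1.63. At chr15:41662601-41666400 the normalised counts were 65.6, 47.0, 27.8 and 36.3, and at chr16:55021201-55025000 68.3, 38.8, 33.9 and 33.0, both with an edgeR adjusted p of 0.689. None of the 3 passed with background scaling (edgeR adjusted p = 0.256, 0.451 and 0.503).

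The parts of the islands were last compared with the infant separately. With background scaling the members' middle segments were 0.50, 0.63 and 0.56 above 0.4 yr on the log2 scale at 9, 22 and 26 yr, and their outer segments 0.44, 0.67 and 0.64. After subtraction of scaled input the middle was 0.89, 1.08 and 0.99 above the infant and the outer segments 0.63, 0.93 and 0.89. Both parts were higher in each older library than in the infant. The middle exceeded the outer difference at 9 yr under both treatments, and at 22 and 26 yr only after subtraction. The members were chosen on the sum of these reads, and the differences were not tested. In the other eligible islands the middle exceeded the outer segments at all 3 ages without subtraction, with 0.55, 0.84 and 0.82 against 0.48, 0.69 and 0.69.

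**Figure D5:**
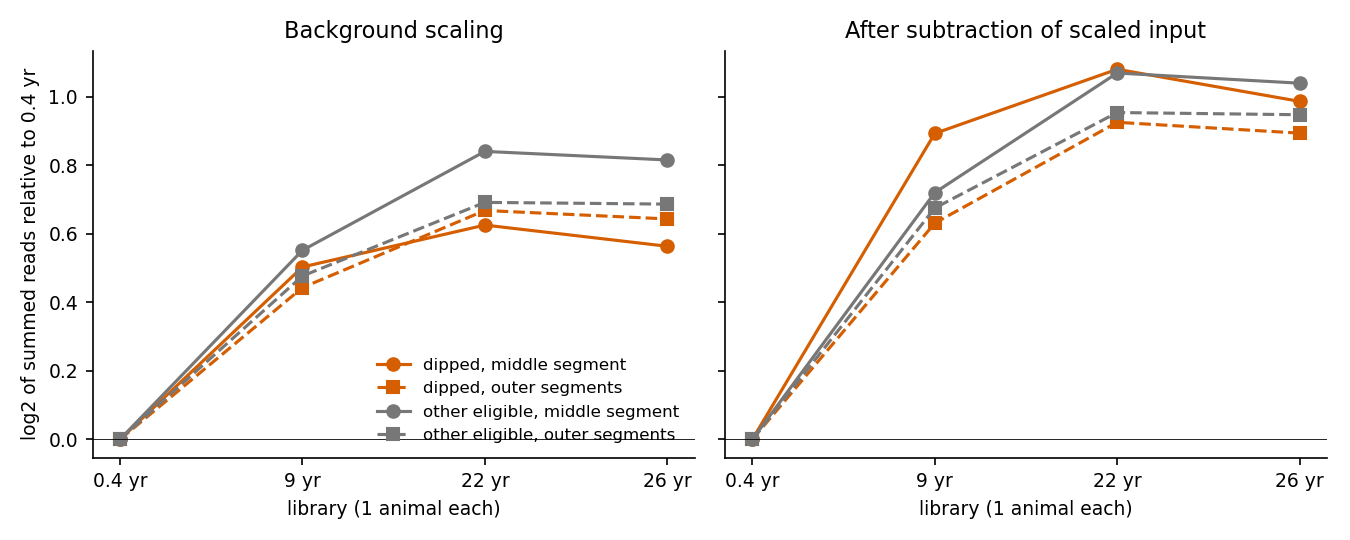
Log2 of summed reads relative to the 0.4 yr library (y axis) by library (x axis, 1 animal each) for middle and outer segments of dipped and other eligible islands, with background scaling (left) and after subtraction of scaled input (right). All lines are above 0 in the 3 older libraries; for dipped islands the middle lies below the outer segments at 22 and 26 yr on the left, with 0.63 against 0.67 and 0.56 against 0.64, and above them on the right.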

How the data were processed

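H3K4me2 chromatin immunoprecipitation was sequenced from 4 macaques (ages 0.4, 9, 22 and 26 yr, 1 library each) and a pooled input. The authors deposited aligned reads of 35 bases, with no repeated position and strand within a file, and 1 table of islands without a header. Islands came from SICER, per the submitters' processing notes. The name of the table states windows of 200 bp, gaps of 400 bp and 0.001 as the false discovery rate. The aligner and the build were not given in the sources used here. Column contents were worked out by comparison with the reads. They are the authors' count of pooled reads, their count of input reads, p-values and adjusted p-values against input, and their fold (a ratio to scaled input). The deposited pooled count was within 5% of the count made here for 90.8% of members.

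Reads were counted in 3 or 5 equal segments and in 200 bp windows after a shift of 75 bp. The dip trend used edgeR 4.0.16 quasi-likelihood on middle and outer counts, with library as a block and an age interaction, over the 17000 eligible islands. The level trend tested the 57903 autosomal islands that passed edgeR's filter at a count of 10, with age in years and 2 residual degrees of freedom. All 1040 members passed that filter. Both were adjusted over all islands tested at 0.05. DESeq2 1.42.0 and limma 3.58.1 were alternatives. Scripts were tested on simulated data with an assumed spread between libraries. The dip trend found 2% of 2-fold and 26% of 4-fold changes, and the level trend 15% and 90%. Changed islands were drawn from all eligible islands for the dip, and only from islands above a read minimum for the level. The level simulation also called 6 unchanged islands among the 57541 tested, and that of the dip 0. Ratios of ages used a pseudocount of 0.5 and islands holding 50 or more reads in both libraries together. Input was scaled by reads in 10 kb bins without islands (factors 0.498, 0.499, 0.514 and 0.554 in order of age). Islands named in the text are the 5 densest, the 5 lowest ratios, 3 on each side of the limit, the 3 smallest p per trend and direction, and the 2 largest ratios per direction for each older age against 0.4 yr. The members, lists and tests were chosen with earlier results of these data known. Groups by fold, reads, width, stretches without the left end of a read, and input dip were set after the data were seen. Comparisons used autosomes only.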

Additional observations from a re-analysis of the deposited data

Results flagged for a closer look

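The X chromosome, left out of the comparisons, also held dipped islands, which is data outside the main measurement. Of its 260 eligible islands, 14 met the rule (5.38%, against 6.12% on the autosomes). The islands were called for signal above the input, so this count describes the shape of their signal and was not tested.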

How the results depend on the processing

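The number of members was 543 with a limit of 0.7, 1780 with 0.9, 1589 after subtraction of input (828 of them members), and 191 with at least 300 pooled reads. Without each library in turn it ran from 1093 to 1190. In order of age, the ratio was 0.565, 0.581, 0.545 and 0.532 without shift, 0.566, 0.596, 0.555 and 0.543 with a shift of 150 bp, 0.404, 0.484, 0.450 and 0.431 after input subtraction, and 0.479, 0.535, 0.502 and 0.484 with at least 300 pooled reads. As a median over members it was 0.579 at 9 yr and 0.526 at 26 yr. The input ratio was 0.828 with a shift of 150 bp and 0.774 as a median over the 1025 members with at least 10 input reads. In libraries left out, the ratio was 0.578, 0.593, 0.575 and 0.540 in order of age with a limit of 0.7. For members a ratio under 1 follows from the rule. The cause of these shifts was not tested. The dip trend called 0 members under each alternative. With TMM the level trend called 0 rising members without each library in turn, and 0 to 1 falling ones, the 1 without the 26 yr library. With background scaling it called 20 rising members, and 0 to 223 without each library in turn, an alternative added after the data were seen. Median log2 ratios of members to 0.4 yr at 9, 22 and 26 yr were 0.44, 0.63 and 0.60 with background scaling, -0.012, -0.039 and -0.042 with a pseudocount of 5, and 0.26, 0.31 and 0.31 after input subtraction with TMM. No paired analysis was possible because each age is 1 library, and the number 1 in each group only names it. A median of 9 input reads in a middle segment limits what the input shows of any single island.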
